A study of Mus musculus with 8 samples.

Results

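DNA repair and damage checkpoint genes were followed in AtT-20 cells, a mouse pituitary tumour line of corticotrope type, the cells that make Pomc, the precursor of ACTH. The 61 genes were taken from the 12193 gene loci with FPKM values. Their symbols fit a fixed pattern of repair and checkpoint names (Fanc, Rad, Brca, Xrcc, Msh, Mlh, Ercc, Parp, Neil, Chek and similar families). The pattern uses names and no values, but it was chosen with earlier results of these data known. FPKM scales the sequenced fragments of a gene by its length and by the size of the library, so levels may be compared between genes. Fancd2 and Palb2 are not analysed here.

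The 4 groups hold 2 libraries each: the EGFR line with water (labelled 3 h), the EGFR line with EGF for 3 h, the EGFR line with EGF for 18 h, and a control line labelled Neo with water (labelled 3 h). All groups were grown in medium with serum. The labels give neither the species of the introduced receptor, nor the promoter that drives it, nor whether a line is 1 clone or a pool. They do not say that the 2 replicates are separate cultures, so the spread behind each p-value is that between these samples and may be only technical. No Neo library received EGF, and no water library is labelled 18 h, so EGF at 18 h and time in culture cannot be told apart. In these bulk samples, fewer cells of a kind and less RNA per cell cannot be told apart either.

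Cells meet DNA damage with several partly separate machineries. Checkpoint kinases sense breaks and stalled forks and hold the cell cycle, homologous recombination and end joining mend double-strand breaks, the Fanconi anaemia genes release crosslinked strands, mismatch repair corrects copying errors, and excision repair replaces damaged bases or bulky lesions. Many of these genes are transcribed most strongly around S phase, under E2F factors, so that their levels are known to follow proliferation. Several members of the PARP family are instead known as interferon-induced genes.

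The libraries had FPKM sums of 683834 to 808072 and medians of 14.3 to 14.7, and replicates correlated across genes at r = 0.985 to 0.987, where genes are not independent replicates. Egfr was at 25.9 and 27.5 FPKM with water, 28.8 and 30.6 at 3 h and 31.9 and 30.3 at 18 h in the EGFR line, against 0.227 and 0.0663 in Neo. Of 9 listed corticotrope markers, 7 had values in all libraries: Pomc, Tbx19, Neurod1, Pitx1, Pcsk1, Cpe and Nr3c1, with Pomc at 6981 to 8930 FPKM. Crhr1 and Avpr1b had none, and 0 of 14 listed markers of fibroblasts, endothelium and blood had values. Of 11 listed markers of other pituitary cells, Gata2 and Sox2 had values, with a sum of 14.7 and 15.9 FPKM with water, 16.6 and 14.97 at 3 h and 12.6 and 12.9 at 18 h, and 18.0 and 18.3 in Neo. Gata2 was called lower at 18 h than with water (−0.24, adjusted p = 0.0242), both were called lower at 18 h than at 3 h, and neither was called at 3 h or between the lines. Their part in the results was not tested. Small RNA genes held 29.1 to 32.8% of summed FPKM in the 6 EGFR libraries and 39.0% and 33.2% in Neo 1 and 2. Because FPKM is scaled to the library, a change in such genes could move all others, which was not tested either. The median FPKM was 14.65 in Neo 1, with the highest share (39.0%), and 14.52 in 3 h EGF 2, with the lowest (29.1%). Small RNA genes are part of the sum that is made equal in the rescaling to a common sum used below.

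All 61 genes are protein coding and all passed the filter on low values, with 2.67 FPKM the lowest value in any library. The median of their mean levels over the 8 libraries was 12.6 FPKM. Rad23b, a carrier of the damage sensor Xpc, was highest at 203 FPKM, followed by the abasic-site endonuclease Apex1 at 91.7 and the repair polymerase Polb at 74.6. Atrip, the partner of the kinase Atr, was lowest at 3.56 FPKM.

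With EGF, more of these genes were called lower at 18 h than at 3 h, by changes of less than 2-fold. At 18 h, 33 of the 61 genes were called lower than with water, where 18.7% of all 10874 genes tested were called lower, and 4 were called higher, against a background of 13.2%, which makes 37 calls in all (background 31.9%). A call is an adjusted p below 0.05 in limma with Benjamini-Hochberg adjustment over all genes tested, and each fold change is a difference of log2(FPKM + 1) values, a scale on which changes of low genes come out too small. At 3 h, 13 genes were called lower against a background of 19.7%, which is close to the members' 21.3%, and 2 were called higher against a background of 11.8%, which makes 15 calls (background 31.5%). The median log2 fold change of the 61 genes was −0.17 at 18 h and −0.09 at 3 h, where the medians of all genes were −0.03 and −0.04. No member changed by 2-fold: log2 fold changes ran between −0.47 and 0.65 at 18 h and between −0.48 and 0.29 at 3 h. Every called member had libraries that did not overlap between the groups compared. This also held for members not called, such as Atr at 18 h, so it adds no support to a call. Both EGF times were set against the same EGFR water libraries, so their values stand side by side and are not independent.

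The count of lower members depended on scaling and on single libraries. At 3 h, the split of 2 higher and 13 lower members became 3 and 12 with median-ratio scaling and 2 and 1 with rescaling to a common sum, under which the share of calls that were higher among all genes was 75.4% in place of 37.5%. At 18 h, 4 higher and 33 lower became 5 and 30 with median-ratio scaling and 4 and 13 with a common sum, and the share of higher calls among all genes was 53.4% and 62.8% in place of 41.4%. With the common sum, lower calls made up 21.3% of members and 6.49% of all genes at 18 h, and 1.64% of members and 4.05% of all genes at 3 h. Without EGFR water 1, 16 members were called lower at 18 h (26.2% of members, where 8.53% of all genes were), and 21 without EGFR water 2 (34.4% and 9.67%). Without 18 h EGF 1 or 18 h EGF 2, 18 members were called lower in each case (29.5%, where 8.94% and 10.7% of all genes were). At 3 h, 0 members were called higher without EGFR water 2. None of the called members changed sign under the 16 alternatives run. With a common sum, the 3 h calls of all members but Chek2, Nbn and Parp8 ended (adjusted p from 0.0632 to 0.297), as did the 18 h calls of 20 members, among them Apex1, Atm, Chek1, Fancm, Nbn, Parp1, Parp2, Pms2, Polb, Polh, Rad1, Rad18, Rad54b, Rad9b, Ung, Wrn, Xrcc1 and Xrcc2 (adjusted p from 0.0561 to 0.385). With no filter on low values, those of Rad9b at 3 h (adjusted p = 0.0605) and of 6 members at 18 h, among them Apex1, Ercc2, Rad54b, Rad9b and Xrcc1 (adjusted p from 0.0522 to 0.0894), ended. With median-ratio scaling, Rad9b at 3 h (adjusted p = 0.0622) and Rad54b, Rad9b and Xrcc1 at 18 h (adjusted p from 0.0513 to 0.0857) were not called, nor with only the 2 groups in the fit were Rad9b at 3 h (adjusted p = 0.0638) and Rad54b and Rad9b at 18 h (adjusted p from 0.0685 to 0.0807).

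**Figure D1:**
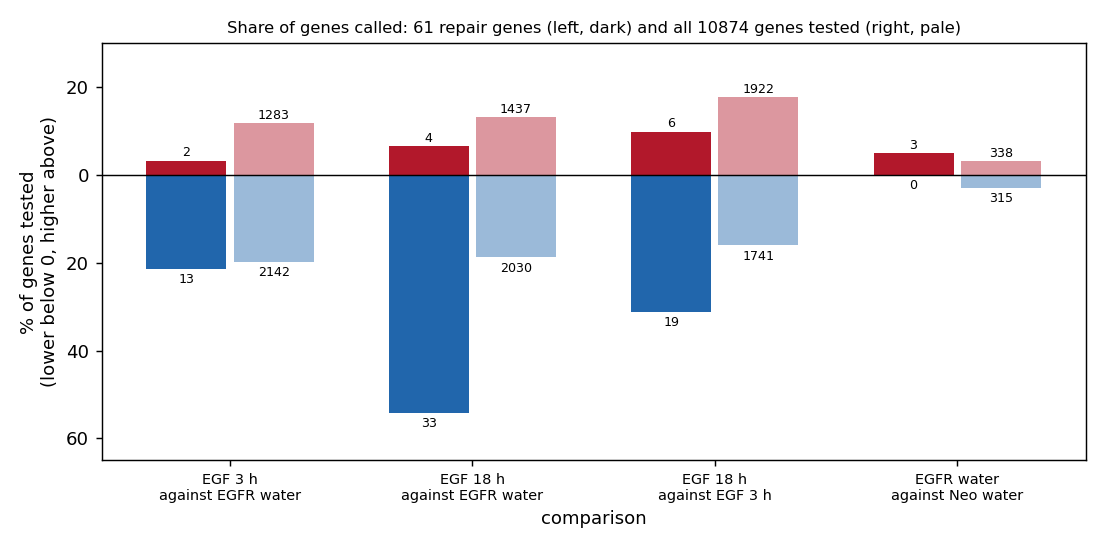
Percent of genes called higher (above 0, red) or lower (below 0, blue) in each comparison, for the 61 repair genes (left, dark bars) and for all 10874 genes tested (right, pale bars), with the number of genes at each bar. The members' bar of 33 lower genes at 18 h of EGF reaches 54.1%, beside 18.7% for all genes, while the bars at 3 h reach 21.3% and 19.7%.

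By role, the members lower at 18 h were 7 of 8 base excision genes, 10 of 14 recombination genes, 5 of 7 Fanconi anaemia genes, 5 of 9 checkpoint genes, both tolerance genes, 2 of 5 mismatch genes, 1 of 2 end joining genes and 1 of 8 nucleotide excision genes. The median log2 fold change at 18 h was −0.16 in base excision, −0.23 in recombination and −0.28 in Fanconi anaemia genes, against −0.17 in all 61. With a common sum, the base excision calls of Apex1, Parp1, Parp2, Polb, Ung and Xrcc1 ended, and that of Neil3 held. Those of Nbn, Rad54b, Wrn and Xrcc2 in recombination and of Fancm among the Fanconi anaemia genes also ended. The members higher at 18 h were 3 of the other 5 PARP genes and 1 nucleotide excision gene. At 3 h the lower members were 2 base excision, 3 recombination, 1 Fanconi anaemia, 3 checkpoint, 2 mismatch, 1 end joining and 1 nucleotide excision gene. Of all genes tested, 18.7% were called lower and 13.2% higher at 18 h, and 19.7% were called lower at 3 h. Of the 61 genes, 8 were lower at both times with no call between them, 3 were lower at both and lower again at 18 h than at 3 h, and 12 were lower at 18 h and than at 3 h but not called at 3 h. Another 9 were called lower at 18 h alone, and 18 were called in no comparison between the EGFR groups.

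**Figure D2:**
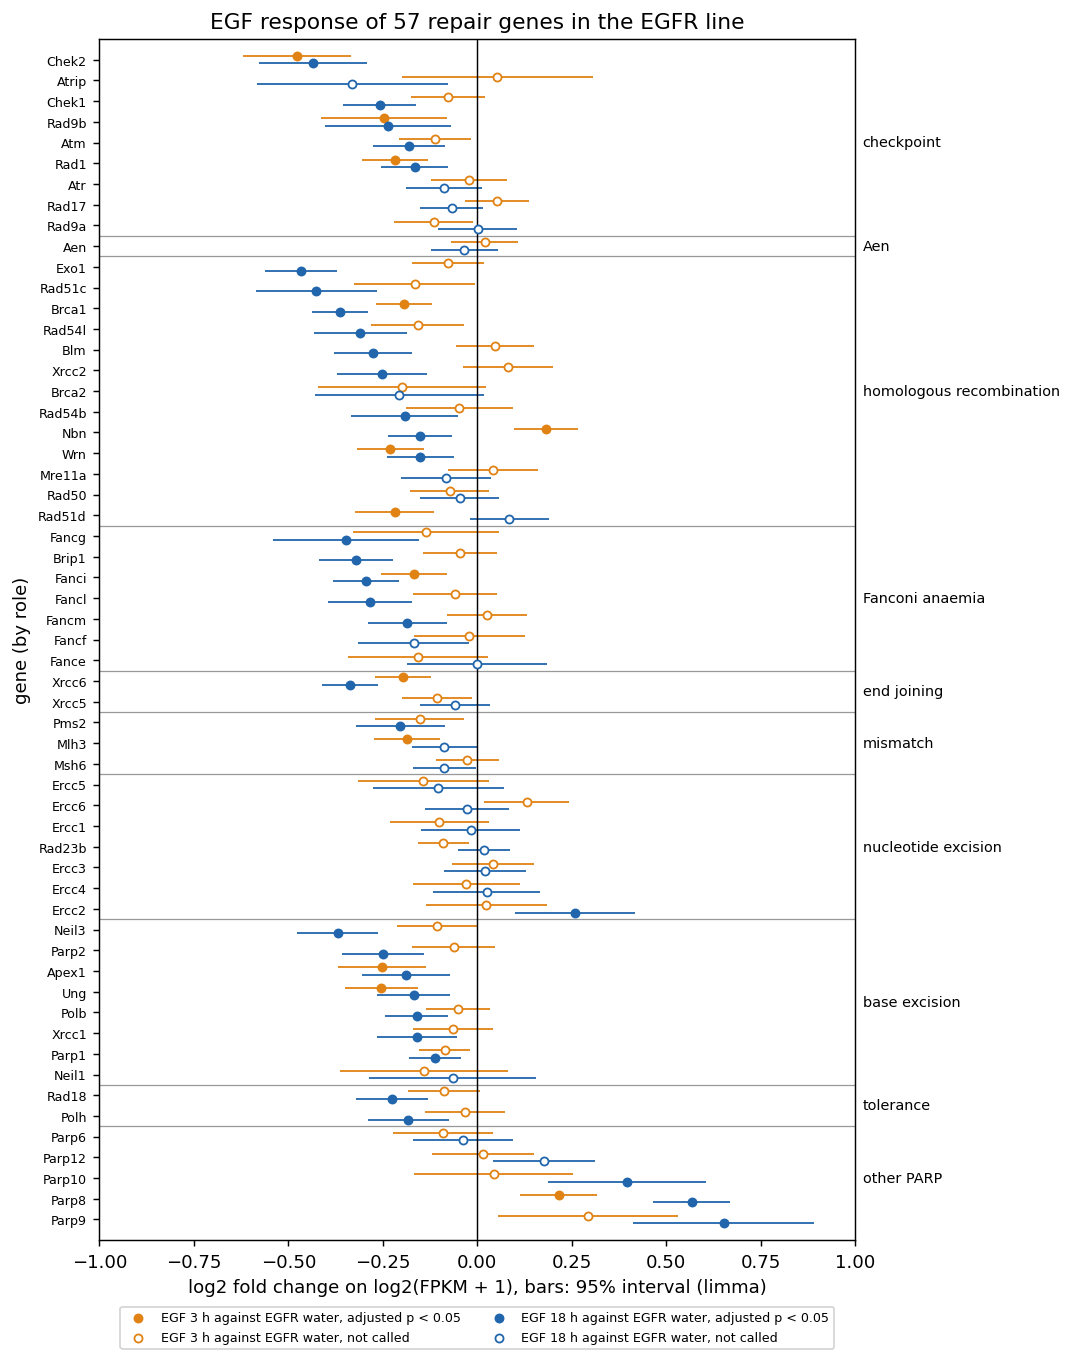
Log2 fold change on log2(FPKM + 1) of each of 57 genes against EGFR water, with 95% intervals from limma, at 3 h (orange) and 18 h (blue) of EGF, ordered by role. Filled points are called at an adjusted p below 0.05. At 18 h 30 filled points lie left of 0 and 4 right of it, of which 3 belong to the PARP genes at the foot of the plot.

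Because most of the called members fell, their promoters were searched for E2F runs, the letters TTTCCCGC, TTTCGCGC, TTTGCCGC or TTTGGCGC on either strand, in RefSeq windows of 300 bases (250 before the start to 50 after it, assembly GRCm38.p6). Windows were matched for 45 of the 61 members. An E2F run stood in 6 of the 45 (13.3%), those of Brca2, Chek2, Fancg, Msh6, Rad51c and Xrcc6, against 4.60% of the 7174 windows of genes tested and 2.33% of all 27025 windows, which were not matched for base composition. It stood in 4 of 24 members lower at 18 h (16.7%) and in 2 of 19 not called (10.5%). The 4 windows of lower members are shown 5′ to 3′ along the gene, to show where the run lies, and capitals mark it. The Chek2 window is chr5:110839733-110840032 on the plus strand, that of Rad51c chr11:87404905-87405204 on the minus strand, that of Fancg chr4:43010252-43010551 on the minus strand and that of Xrcc6 chr15:82016119-82016418 on the plus strand.
Chek2: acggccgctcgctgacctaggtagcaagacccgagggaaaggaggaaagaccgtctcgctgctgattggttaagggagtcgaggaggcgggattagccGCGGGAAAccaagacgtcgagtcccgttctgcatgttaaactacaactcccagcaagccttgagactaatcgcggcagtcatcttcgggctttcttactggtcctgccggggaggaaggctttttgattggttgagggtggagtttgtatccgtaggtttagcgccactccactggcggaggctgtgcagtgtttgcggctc
Rad51c: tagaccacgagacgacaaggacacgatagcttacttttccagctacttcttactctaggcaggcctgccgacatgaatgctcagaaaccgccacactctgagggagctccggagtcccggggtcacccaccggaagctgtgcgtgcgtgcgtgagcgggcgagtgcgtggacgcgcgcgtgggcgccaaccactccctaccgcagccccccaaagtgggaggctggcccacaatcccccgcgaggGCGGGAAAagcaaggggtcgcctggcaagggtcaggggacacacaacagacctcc
Fancg: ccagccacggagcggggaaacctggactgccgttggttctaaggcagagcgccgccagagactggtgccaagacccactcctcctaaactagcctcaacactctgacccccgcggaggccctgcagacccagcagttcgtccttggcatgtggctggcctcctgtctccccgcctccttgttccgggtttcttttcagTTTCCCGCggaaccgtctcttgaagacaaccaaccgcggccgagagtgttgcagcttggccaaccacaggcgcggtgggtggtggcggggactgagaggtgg
Xrcc6: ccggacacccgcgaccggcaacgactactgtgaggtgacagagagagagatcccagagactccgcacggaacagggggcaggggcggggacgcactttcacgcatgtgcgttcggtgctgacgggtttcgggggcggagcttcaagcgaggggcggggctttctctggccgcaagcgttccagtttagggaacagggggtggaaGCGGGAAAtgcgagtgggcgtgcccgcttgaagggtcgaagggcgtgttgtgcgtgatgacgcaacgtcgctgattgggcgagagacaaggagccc
The run began 152 bases before the start in Chek2, 52 before it in Fancg, 46 before it in Xrcc6 and 5 before it in Rad51c, where it crosses the start. The start is that of RefSeq, which lies 28534 bases inside the measured locus in Xrcc6, 205 in Fancg, 4 in Chek2 and 0 in Rad51c, and within 300 bases of the start of the locus in 40 of the 45 members. It reads GCGGGAAA along the gene in Chek2, Rad51c and Xrcc6 and TTTCCCGC in Fancg. CCAAT, the letters bound by NF-Y, stood on either strand in 55.6% of the 45 windows, against 40.4% of those of genes tested. The STAT-type run TTCNNNGAA stood in 2 windows, those of Fancl and Rad54l (4.44%, against 6.55%). A match is a description of letters, not a site.

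Among the checkpoint genes, Chek2, an effector kinase downstream of Atm (chromosome 5, 110839979 to 110874145 in 1-based mm10 coordinates, plus strand), fell at both times. It had 13.03 and 14.4 FPKM with water, 9.25 and 9.92 at 3 h and 9.97 and 9.82 at 18 h in the EGFR line, and 12.4 and 11.4 in Neo. All 4 EGF libraries lay below all 4 water libraries of both lines. Its log2 fold change was −0.48 ± 0.06 (SE) at 3 h (adjusted p = 0.00207) and −0.43 ± 0.06 at 18 h (adjusted p = 0.00203), and it was the only call against water at 3 h that held under all 16 alternatives. Chek1, the effector kinase of Atr, had 22.0 and 20.8 FPKM with water, 20.5 and 19.99 at 3 h and 18.0 and 17.4 at 18 h, and 19.5 and 20.5 in Neo. It was called at 18 h (−0.26 ± 0.04, adjusted p = 0.00358) and its 95% interval at 3 h was −0.17 to 0.02.

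Of the sensor kinases, Atm was called at 18 h and Atr at neither time. Atm, which responds to double-strand breaks, had 21.1 and 20.3 FPKM with water, 19.4 and 18.7 at 3 h and 17.7 and 18.7 at 18 h, and 19.2 and 19.6 in Neo. It was called at 18 h (−0.18, adjusted p = 0.0145), a call that ended without EGFR water 1 or 18 h EGF 1 (adjusted p = 0.0967 and 0.0964). Atr, which responds to stalled forks, had 13.6 and 13.5 FPKM with water, 13.5 and 13.2 at 3 h and 12.7 and 12.7 at 18 h, and 12.8 and 13.9 in Neo. Its 18 h libraries lay below the water libraries, but it was not called and its 95% interval was −0.19 to 0.01. Of the checkpoint clamp, Rad1 fell at both times (−0.22 at 3 h and −0.17 at 18 h) and Rad9b fell by 0.25 and 0.24 on the log2 scale, whereas Rad9a was not called. The 18 h call of Rad1 ended without EGFR water 1 or either 18 h EGF library (adjusted p from 0.0566 to 0.104). The calls of Rad9b ended without each of several libraries, EGFR water 1 and all 4 EGF libraries at either time (adjusted p from 0.0505 to 0.178 at 3 h and from 0.0570 to 0.208 at 18 h). Rad9b shares 23.2% of its exon bases with Pptc7 on the opposite strand, and no source used here says whether counting used strand. Pptc7 itself was not called at either time.

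In homologous recombination, the largest decrease at 18 h was that of Exo1, the exonuclease that resects break ends (chromosome 1, 175880581 to 175913489, plus strand). It had 49.4 and 49.5 FPKM with water, 45.9 and 47.7 at 3 h and 35.4 and 35.6 at 18 h, and 43.8 and 40.8 in Neo. The 18 h libraries lay below all other libraries, and the level fell by 28.2% against water (−0.47 ± 0.04, adjusted p = 0.000233). Brca1, which helps start recombination at breaks (chromosome 11, 101488764 to 101551955, minus strand), had 19.2 and 19.5 FPKM with water, 16.9 and 16.6 at 3 h and 14.98 and 14.7 at 18 h, and 18.5 and 18.5 in Neo. The 3 groups of the EGFR line did not overlap, and Brca1 was called at 3 h (−0.19 ± 0.03, adjusted p = 0.00505), at 18 h (−0.36 ± 0.03, adjusted p = 0.000242) and between the times (−0.17 ± 0.03, adjusted p = 0.00753), where the call ended without 18 h EGF 2 (adjusted p = 0.0530).

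Rad51c, which acts in strand exchange, had 22.7 and 23.3 FPKM with water, 19.1 and 21.8 at 3 h and 16.4 and 17.4 at 18 h, and 19.2 and 21.01 in Neo. The 18 h libraries were the lowest, and the change of −0.43 ± 0.07 (adjusted p = 0.00353) was called under all alternatives run. Rad51d, of the same gene family, ran the other way between the times, with 10.6 and 10.6 FPKM with water, 8.69 and 9.31 at 3 h and 11.4 and 11.3 at 18 h, and 12.01 and 11.4 in Neo. It was lower at 3 h than with water (−0.22, adjusted p = 0.0113) and higher at 18 h than at 3 h (0.30, adjusted p = 0.00318), and the 3 h call ended without EGFR water 1, EGFR water 2 or 3 h EGF 1 (adjusted p from 0.0593 to 0.0618). Brca2, which prepares broken ends for strand exchange, had 6.19 and 6.70 FPKM with water, 5.56 and 5.41 at 3 h and 6.14 and 4.83 at 18 h, and 6.47 and 5.90 in Neo. Its 18 h replicates lay far apart, it was not called, and its interval at 18 h was −0.43 to 0.02.

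Of the other recombination genes, Rad54l (−0.31), the helicase Blm (−0.28), the strand exchange gene Xrcc2 (−0.25), Rad54b (−0.19) and the helicase Wrn (−0.15) were lower at 18 h than with water. The Wrn helicase had 16.0 and 15.9 FPKM with water, 13.2 and 13.8 at 3 h and 14.5 and 14.1 at 18 h, and 15.7 and 16.2 in Neo. It was the only 1 of these 5 called at 3 h as well (−0.23, adjusted p = 0.00522). Its 18 h call ended without any 1 of the EGFR water or 18 h EGF libraries (adjusted p from 0.0646 to 0.115), and that of Xrcc2 ended without EGFR water 1 or 18 h EGF 1 (adjusted p = 0.0597 and 0.0631). Rad54b, of whose transcript 86.1% is similar to that of Fsbp, lost its call when any 1 of the 7 libraries other than 18 h EGF 1 was left out (adjusted p from 0.0525 to 0.221).

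Nbn, the signalling subunit of the break-binding complex with Mre11a and Rad50 (chromosome 4, 15957925 to 15992589, plus strand), was the only member with opposite calls at the 2 times. It had 12.7 and 12.3 FPKM with water, 14.0 and 14.6 at 3 h and 11.1 and 11.2 at 18 h, and 12.6 and 12.6 in Neo. The 3 groups of the EGFR line did not overlap, with 3 h highest and 18 h lowest. The change was 0.18 ± 0.04 at 3 h (adjusted p = 0.0101), −0.15 ± 0.04 at 18 h (adjusted p = 0.0178) and −0.33 ± 0.04 between the times (adjusted p = 0.00110), and only the last was called under all alternatives run. The 3 h call ended without EGFR water 2 (adjusted p = 0.0715), and the 18 h call without any 1 of the EGFR water or 18 h EGF libraries (adjusted p from 0.0598 to 0.112). Mre11a and Rad50, its partners, were called at neither time, with 18 h intervals of −0.20 to 0.04 and −0.15 to 0.06.

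**Figure D3:**
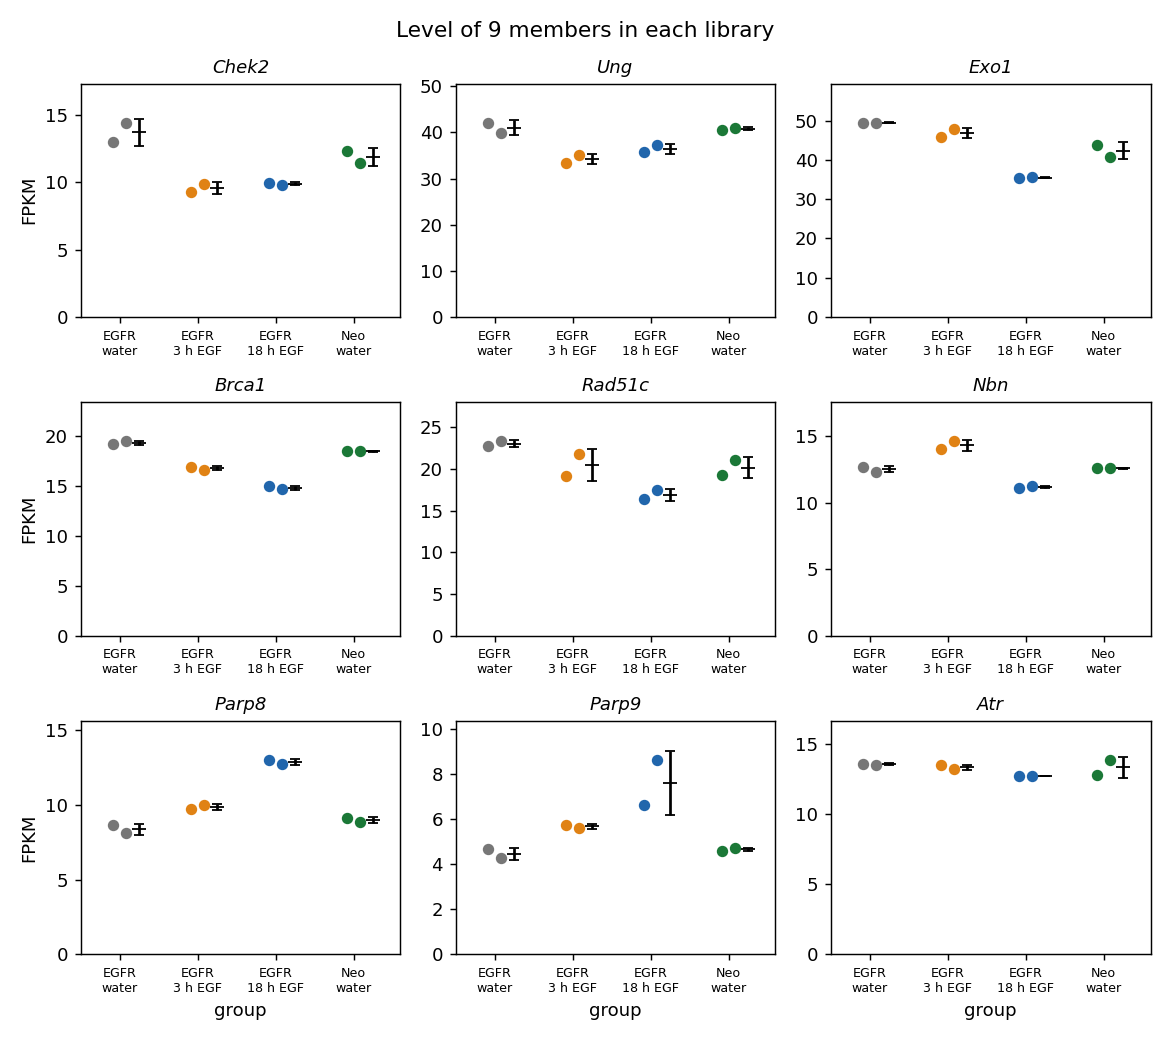
FPKM of 9 members in each library (points) with the group mean and SD (bars, n = 2), in the order EGFR water, EGFR with EGF for 3 h, EGFR with EGF for 18 h and Neo water, each axis starting at 0. Chek2 and Ung are low at both EGF times, Exo1 falls to 35.4 and 35.6 at 18 h, Nbn is highest at 3 h and lowest at 18 h, and Parp8 and Parp9 are highest at 18 h.

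Of the Fanconi anaemia genes, Brip1 (a helicase bound by Brca1), Fanci, the ubiquitin ligase Fancl, the core complex gene Fancg and the translocase Fancm fell at 18 h, by 0.32, 0.29, 0.28, 0.35 and 0.18 on the log2 scale. Brip1 had 9.43 and 9.04 FPKM with water, 9.11 and 8.71 at 3 h and 7.25 and 7.13 at 18 h, and 7.88 and 7.81 in Neo. The 18 h libraries of Brip1 lay below all others (adjusted p = 0.00138 against water). Fanci was the only Fanconi gene lower at 3 h as well (−0.17, adjusted p = 0.0157), a call that ended without EGFR water 1, EGFR water 2 or 3 h EGF 1 (adjusted p from 0.0632 to 0.0949). The 18 h call of Fancg ended without EGFR water 1 or either 18 h EGF library (adjusted p from 0.0567 to 0.103), and that of Fancm without any 1 of the EGFR water or 18 h EGF libraries (adjusted p from 0.0506 to 0.121). Of the Fancm transcript, 34.3% is similar to that of Gm47870. The core complex genes Fance and Fancf were called in no comparison.

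Of the Ku heterodimer that starts end joining, Xrcc6 fell and Xrcc5 was not called. Xrcc6 (chromosome 15, 81987835 to 82040085, plus strand) had 41.7 and 42.7 FPKM with water, 36.2 and 37.3 at 3 h and 33.2 and 33.2 at 18 h, and 37.9 and 37.2 in Neo. The 3 groups of the EGFR line did not overlap, and the change was −0.20 ± 0.03 at 3 h (adjusted p = 0.00494) and −0.34 ± 0.03 at 18 h (adjusted p = 0.000318). Xrcc5 had 37.9 and 37.0 FPKM with water, 33.6 and 35.9 at 3 h and 36.2 and 35.6 at 18 h, and 39.0 and 37.9 in Neo. Its EGF libraries lay below those with water, with intervals of −0.20 to −0.01 at 3 h (adjusted p = 0.0785) and −0.15 to 0.03 at 18 h, and whether the subunits differed in their change was not tested. In mismatch repair, the sensor gene Msh6 was not called (−0.03 at 3 h and −0.09 at 18 h). Mlh3 was lower at 3 h only by call (−0.19, adjusted p = 0.0102, and 0.0721 without EGFR water 1), and Pms2 at 18 h only by call (−0.20, adjusted p = 0.0200, and 0.0512 to 0.113 without any 1 of the EGFR water or 18 h EGF libraries).

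Of the 8 base excision genes, Neil3, a glycosylase of replicating cells, fell most at 18 h and was not called at 3 h. It had 15.4 and 14.3 FPKM with water, 14.1 and 13.4 at 3 h and 11.2 and 11.3 at 18 h, and 13.4 and 12.9 in Neo. The 18 h libraries of Neil3 lay below all others (−0.37 ± 0.05, adjusted p = 0.00114). Ung, which removes uracil, had 42.2 and 40.0 FPKM with water, 33.5 and 35.1 at 3 h and 35.7 and 37.2 at 18 h, and 40.5 and 41.0 in Neo. Its 4 EGF libraries lay below the 4 water libraries (−0.25, adjusted p = 0.00496 at 3 h, and −0.17, adjusted p = 0.0197 at 18 h), and the 18 h call ended without EGFR water 1 or 18 h EGF 1 (adjusted p = 0.128 and 0.119). Apex1 had 100.0 and 99.5 FPKM with water, 79.8 and 87.4 at 3 h and 87.0 and 87.9 at 18 h, and 99.2 and 93.0 in Neo. Its EGF libraries were also lower than all water libraries (−0.25 at 3 h and −0.19 at 18 h), but 61.7% of its exon bases lie in Tmem55b (Pip4p1) on the opposite strand. Tmem55b was not called against water at either time (−0.11 and 0.10). The Apex1 calls ended without EGFR water 1 or 2 at 3 h (adjusted p = 0.0558 and 0.0533) and without any 1 of the EGFR water or 18 h EGF libraries at 18 h (adjusted p from 0.0854 to 0.112).

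Parp1, which marks strand breaks with poly(ADP-ribose), had 66.1 and 65.5 FPKM with water, 61.4 and 62.5 at 3 h and 60.99 and 60.7 at 18 h, and 65.5 and 64.2 in Neo. The fall to 60.8 FPKM at 18 h, against 65.8 with water, was the smallest one called (−0.11 ± 0.03, adjusted p = 0.0240). Parp2 (−0.25), the scaffold Xrcc1 (−0.16) and Polb (−0.16) were also lower at 18 h, and Neil1 was called at neither time. The calls of Parp1, Xrcc1 and Polb each ended without any 1 of the EGFR water or 18 h EGF libraries, with adjusted p from 0.101 to 0.137 for Parp1, from 0.0687 to 0.165 for Xrcc1 and from 0.0552 to 0.0771 for Polb. In damage tolerance, the ubiquitin ligase Rad18 (−0.22) and the bypass polymerase Polh (−0.18) were lower at 18 h, and the Polh call ended without any 1 of those 4 libraries (adjusted p from 0.0730 to 0.108).

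Of the 8 nucleotide excision genes, 6 were not called at 18 h. Ercc1, a subunit of the incision nuclease with Ercc4, had 9.91 and 10.6 FPKM with water, 9.72 and 9.28 at 3 h and 10.3 and 9.91 at 18 h, and 11.2 and 10.2 in Neo. The 18 h and water libraries overlapped, and the 18 h interval was −0.15 to 0.11. Ercc2, a helicase of the transcription factor that opens DNA around a lesion, was higher at 18 h, with 9.41 and 8.71 FPKM with water, 8.54 and 9.96 at 3 h and 10.9 and 11.1 at 18 h, and 10.2 and 10.3 in Neo. Its increase of 0.26 ± 0.07 (adjusted p = 0.0256) ended as a call without any 1 of the EGFR water or 18 h EGF libraries (adjusted p from 0.0515 to 0.134). Of its exon bases, 42.7% lie in opposite-strand genes, among them Klc3, which was also higher at 18 h (0.26, adjusted p = 0.00879). If counting ignored strand, which no source used here states, reads from the shared bases could belong to either gene.

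**Figure D4:**
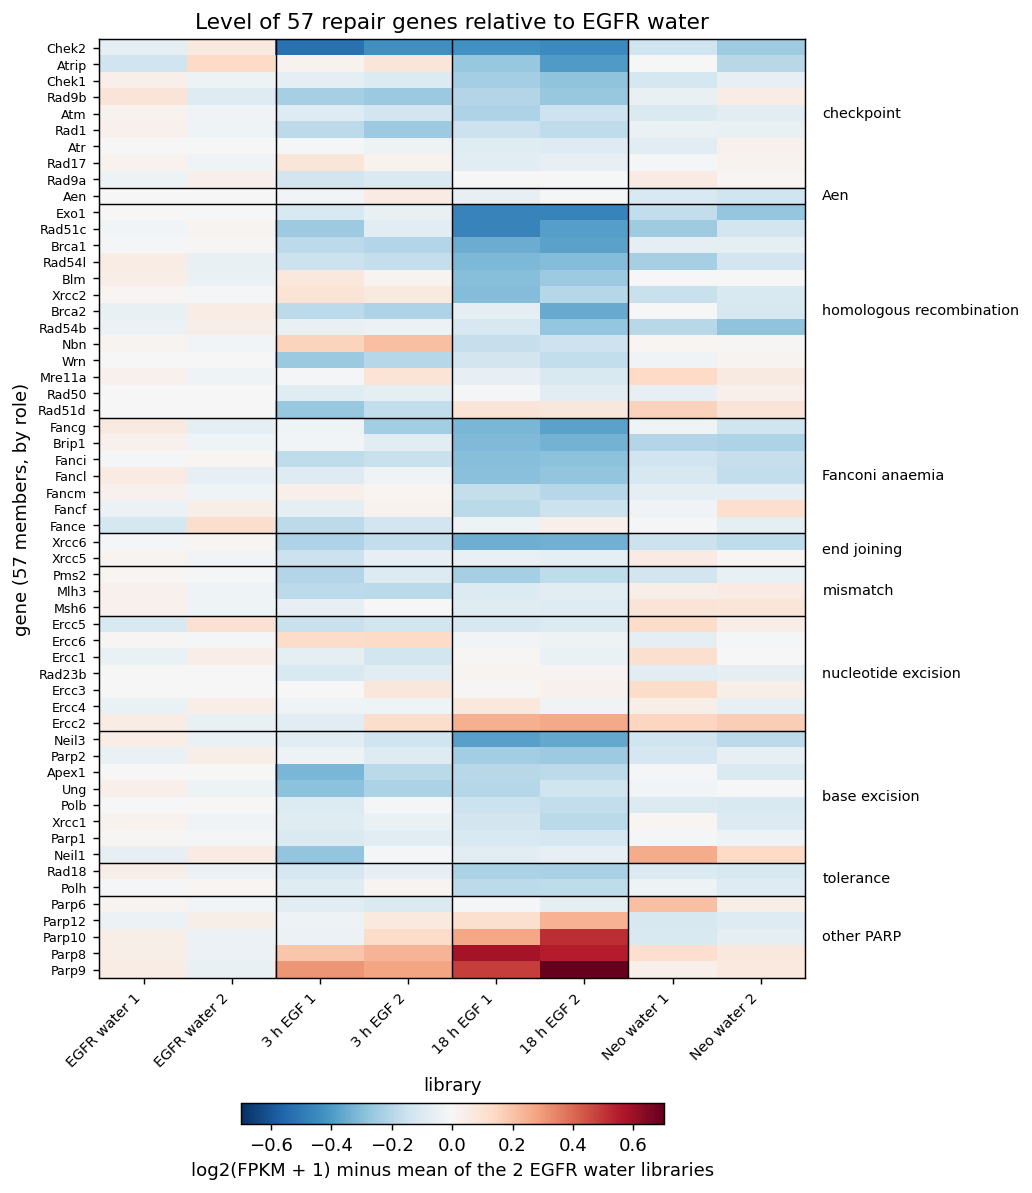
Level of each of 57 genes in each library, as log2(FPKM + 1) minus the mean of the 2 EGFR water libraries, with genes in rows by role and libraries in columns. Blue is lower and red is higher. Blue cells fill most rows of the 18 h EGF columns above the PARP genes, and the red cells of Parp8, Parp9 and Parp10 are deepest in those same columns.

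Of the 4 members higher at 18 h, 3 were PARP genes that are not part of the base excision machinery. Parp9, which works with the ubiquitin ligase Dtx3l and is a known interferon-induced gene (chromosome 16, 35938470 to 35972605, plus strand), had 4.67 and 4.27 FPKM with water, 5.77 and 5.61 at 3 h and 6.63 and 8.65 at 18 h, and 4.60 and 4.72 in Neo. The 18 h replicates differed widely but both lay above all other libraries (0.65 ± 0.10, adjusted p = 0.00319). Parp8 (chromosome 13, 116854824 to 117025516, minus strand) had 8.62 and 8.09 FPKM with water, 9.70 and 10.0 at 3 h and 12.996 and 12.7 at 18 h, and 9.14 and 8.84 in Neo. The 3 groups of the EGFR line did not overlap, with 0.22 ± 0.04 at 3 h (adjusted p = 0.0111, and 0.0745 without EGFR water 2) and 0.57 ± 0.04 at 18 h (adjusted p = 0.000143). Parp10, also interferon induced, had 7.87 and 7.37 FPKM with water, 7.37 and 8.42 at 3 h and 9.40 and 11.3 at 18 h, and 6.995 and 7.21 in Neo. Its 18 h libraries were above all others (0.40 ± 0.09, adjusted p = 0.0146), and the call ended without EGFR water 2 or 18 h EGF 2 (adjusted p = 0.0778 and 0.0634). Parp12 was not called at 18 h (0.18, adjusted p = 0.0520), nor was Parp6.

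Interferon-response genes outside the members were higher at 18 h too: 10 of 12 with values of 27 listed were called higher, where 13.2% of all genes tested were. Usp18 (1.46), Isg15 (1.15), Bst2 (0.89) and Oas1a (0.87) changed most. Their summed level was 134 and 131 FPKM with water, 141 and 150 at 3 h and 167 and 206 at 18 h, and 127 and 122 in Neo. The second 18 h library was the higher of its pair in this sum as it was for Parp9, Parp10 and Parp12. It was the lower of its pair for Parp8 (12.996 and 12.7 FPKM) and Parp6 (27.1 and 26.0 FPKM). The part of the interferon genes in the PARP values was not tested. Dtx3l, the partner of Parp9, was also higher at 18 h (0.26, adjusted p = 0.0198).

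Aen, a nuclease induced by p53 that is tied to cell death, had 38.6 and 38.4 FPKM with water, 37.9 and 40.2 at 3 h and 36.9 and 38.2 at 18 h, and 35.8 and 34.9 in Neo. It was called in no comparison, with intervals of −0.07 to 0.11 at 3 h and −0.12 to 0.05 at 18 h. Of 30 listed p53 targets outside the members, 25 had values, of which 5 were higher and 10 lower at 3 h, and 5 higher and 4 lower at 18 h. Among all genes tested, 11.8% were higher and 19.7% lower at 3 h, and 13.2% and 18.7% at 18 h. The kinases Plk2 (1.39 at 3 h and 1.71 at 18 h) and Plk3 (0.78 and 0.70) rose at both times. The cell cycle inhibitor Cdkn1a was higher at 18 h (0.30), and Trp53inp1 (−0.71) and Sesn1 (−0.37) were lower at 3 h.

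Of 99 further repair genes listed, 81 had values. At 18 h 29 of them were called lower and 3 higher, and at 3 h 23 were lower and 6 higher. Among all genes tested, 18.7% were lower and 13.2% higher at 18 h, and 19.7% and 11.8% at 3 h. The recombination gene Rad51ap1 (−0.42), the nuclease gene Eme1 (−0.36), the histone gene H2afx (−0.36) and the nuclease-helicase gene Dna2 (−0.36) fell most at 18 h. Genes of DNA replication and S phase moved with them: of 33 with values, 29 were lower at 18 h (median −0.28), and 8 were lower and 2 higher at 3 h (median −0.09). Their summed level was 2177 and 2150 FPKM with water, 2004 and 2103 at 3 h and 1782 and 1793 at 18 h, and 2033 and 1995 in Neo. The 18 h sums lay below all others, and the part of S-phase genes in the fall of the repair genes was not tested.

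The 18 h libraries were set directly against the 3 h libraries to show how levels differed between the times. No water library is labelled 18 h, so longer EGF and time in culture cannot be told apart here either. At 18 h, 19 members were called lower than at 3 h against a background of 16.0%, and 6 higher against 17.7%, so that 25 were called in all (background 33.7%). The split of 6 higher and 19 lower was 2 and 15 with a common sum and 6 and 20 with median-ratio scaling, and with a common sum 39.3% in place of 52.5% of calls among all genes were higher. With protein-coding genes only, 36.1% of members and 19.4% of all genes were called lower, and 11.5% and 21.8% higher. The largest decreases were in Exo1 (−0.39 ± 0.04, adjusted p = 0.000934), Atrip (−0.38 ± 0.11, adjusted p = 0.0308), Nbn (−0.33), Xrcc2 (−0.33), Blm (−0.32) and Brip1 (−0.28). Xrcc2 had 6.45 and 6.32 FPKM with water, 6.87 and 6.75 at 3 h and 4.97 and 5.44 at 18 h, and 5.62 and 5.86 in Neo. Blm, the Bloom syndrome helicase, had 11.4 and 10.6 FPKM with water, 11.6 and 11.2 at 3 h and 8.74 and 9.06 at 18 h, and 10.99 and 10.9 in Neo. In both, the 3 h libraries lay above or among those with water and the 18 h libraries lowest of all. Atrip had 3.39 and 4.33 FPKM with water, 3.92 and 4.12 at 3 h and 3.03 and 2.67 at 18 h, and 3.83 and 3.23 in Neo. Of its transcript, 73.5% is similar to that of Trex1, which was not called, and its call ended without any 1 of the 3 h or 18 h EGF libraries (adjusted p from 0.0609 to 0.139).

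The increases of 18 h over 3 h were in Parp9 (0.36), Parp10 (0.35), Parp8 (0.35), Rad51d (0.30), Ercc2 (0.23) and Rad23b (0.11). Rad23b had 208 and 208 FPKM with water, 193 and 198 at 3 h and 211 and 211 at 18 h, and 198 and 199 in Neo. The 3 h libraries of Rad23b lay near those of Neo and below the other EGFR libraries. Of the 6, the calls of Parp8 and Rad51d held without each library. The others ended without some single libraries: Parp9 without either 3 h EGF library or 18 h EGF 2 (adjusted p from 0.0995 to 0.106), Parp10 without 3 h EGF 1 or 18 h EGF 2 (0.116 and 0.0988), Ercc2 without 3 h EGF 1 or either 18 h EGF library (0.108 to 0.137), and Rad23b without either EGFR water library, 3 h EGF 1 or either 18 h EGF library (0.0653 to 0.126). Without 18 h EGF 1, 10 members were called lower than at 3 h (16.4%, where 7.52% of all genes were), and 7 without 18 h EGF 2 (11.5%, where 8.43% of all genes were). Without 3 h EGF 1 or without 18 h EGF 2, 2 members were called higher (3.28%, where 10.4% and 9.72% of all genes were). With only the 2 groups in the fit and with a common sum, the increases of Ercc2, Parp9, Parp10 and Rad23b also ended (adjusted p up to 0.0980 and 0.521), as did those of Ercc2, Parp9 and Parp10 and the decrease of Atrip with no filter (adjusted p from 0.0582 to 0.0748).

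The EGFR line with water was set against the Neo line with water to show how far the repair genes differed before any EGF. Only 3 members were called higher, against a background of 3.11%, and 0 lower, against 2.90% (6.01% in either direction). The 3 higher members were Exo1 (0.22 ± 0.04, adjusted p = 0.0270), Brip1 (0.21 ± 0.04, adjusted p = 0.0342) and Xrcc6 (0.16 ± 0.03, adjusted p = 0.0311), whose levels in every library are given above. In all 3, both EGFR water libraries lay above both Neo libraries. At an unadjusted p under 0.05 in the same limma fit, 15 members were higher (24.6%, where 14.9% of all genes tested were) and 3 were lower (4.92%, where 10.9% were). None of the 3 calls held under all alternatives: with only these 2 groups in the fit there were 0 calls, and leaving out EGFR water 1, EGFR water 2, Neo 2, 18 h EGF 1 or 18 h EGF 2 also gave 0, and Neo 1 gave 1 (adjusted p of the lost calls from 0.0534 to 0.189). With a common sum 5 members were called higher, and the share of higher calls among all genes was 75.0% in place of 51.8%, and 43.8% with median-ratio scaling. The EGFR water libraries are the same ones that serve as the baseline of EGF, so these 3 differences and the EGF responses are not independent. Of S-phase genes, 7 of 33 were higher in the EGFR line, and their part was not tested.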

How the data were processed

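RNA was measured in 8 libraries of AtT-20 cells, 2 in each of 4 groups. Per the labels, RNA was extracted on columns, reverse transcribed with Superscript III and sequenced on an Illumina platform. The authors deposited FPKM per gene locus on mm10, and these FPKM values were used as deposited. The tools in the submitters' processing notes are DESeq (no version), HTSeq 0.5.4, TopHat2 2.0.8 and Trimmomatic 0.22. No source used here gives the program that computed FPKM, strandedness or depth. At the depth that fitted best, the FPKM of low genes with a single transcript lay within 0.1 of whole fragments for only 48.5 to 55.0% of genes, so no counts were recovered and no count test was run.

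Genes that reached 1 FPKM in 2 or more libraries (10874 of 12193) were tested in 1 limma-trend fit (limma 3.58.1, R 4.3.3) on log2(FPKM + 1) over all 4 groups, with 4 residual and 3.29 prior degrees of freedom. P-values were adjusted by Benjamini-Hochberg over all genes tested in a comparison, with a threshold of 0.05. The members, gene lists and named genes were chosen with earlier results of these data known. Values in every library are given for a set of core repair genes and for the 6 largest called increases and decreases per comparison. Of the 61 members, 4 are not reported here by name or in the plots of single genes and count only in totals. Up to 4 of the largest called genes of each further list are named per comparison. The script was tested on simulated data, and the outcome of that test is not given here. Alternatives were a pseudocount of 0.1, a filter at 5 FPKM or none, protein-coding genes only, median-ratio or common-sum scaling, only the 2 groups compared in the fit, a replicate block, and each library left out.

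Of the 61 loci, 48 had the same bounds as in GENCODE M21 after 1 was added to the start. Exon overlap was computed with bedtools 2.31.1 and transcript similarity (at least 95% identity over at least 200 bases) with minimap2 2.31, both on M21. At least 1 of these measures is given above for each named member that shares at least 20%. Also above 20% were the exon overlap of Rad54b (35.9%) and the transcript similarity of Ercc2 to Gm26852 (78.6%) and of Rad9b to Pptc7 (42.3%). Promoter windows came from RefSeq. Python 3.11.15, pandas 2.3.3, NumPy 2.4.6 and matplotlib 3.10.9 were used.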

Additional observations from a re-analysis of the deposited data

Results flagged for a closer look

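For 25 of the 61 repair genes, the level after 18 h of EGF differed from that after 3 h, by the direct limma comparison of the times, in which 33.7% of all genes tested were called. The largest of these differences were in Exo1 (−0.39 on the log2 scale), Atrip (−0.38), Parp9 (0.36), Parp8 (0.35) and Parp10 (0.35). Nbn was the only one of the 61 with opposite calls against water, 0.18 at 3 h and −0.15 at 18 h, with −0.33 between the times. All of these comparisons share libraries, and no group of 4 or more libraries was at hand to look for single outlying ones.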

How the results depend on the processing

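None of the called members reversed sign under any alternative run. Of the calls, 13 of 37 at 18 h, 8 of 25 between the times, 1 of 15 at 3 h and 0 of 3 between EGFR and Neo held under all 16 alternatives. With rescaling to a common sum, 1 member was lower at 3 h, 13 were lower at 18 h, 2 were higher at 18 h than at 3 h and 5 were higher in EGFR than in Neo. With no filter on low values 3 members were higher at 18 h than at 3 h, and with only the 2 groups in the fit 2 were, while 0 were then higher in EGFR than in Neo. Leaving out each library in turn gave 0 to 3 higher and 9 to 19 lower members at 3 h, 2 to 4 and 16 to 32 at 18 h, 2 to 6 and 7 to 18 between the times, and 0 to 3 and 0 to 0 between EGFR and Neo. The cause of these shifts was not tested, beyond the smaller number of samples when a library is left out. An arm left with 1 library is assumed to vary like the other groups. Deviations of same-numbered libraries correlated at −0.172 to 0.310 between groups, highest between 18 h EGF and Neo. With 2 libraries a group, this cannot decide whether the replicate numbers pair the samples. With the replicate block, 2 members were higher and 15 lower at 3 h, 5 and 32 at 18 h, 7 and 15 between the times, and 1 and 0 between EGFR and Neo. The calls that ended with the block were those of Rad54b and Rad9b at 18 h (adjusted p = 0.0539 to 0.0611), Ercc6, Fanci, Polh, Rad17 and Rad18 between the times (0.0532 to 0.0609) and Exo1 and Xrcc6 between EGFR and Neo (0.0527 to 0.0562). No source used here gives the depth, so no counting error is given, and 2 libraries a group limit every comparison.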
